A study of Mus musculus and Homo sapiens
Mus musculus with 12 samples.

Results

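Vascular nuclei made up 72 of the 11198 nuclei in 7 snHH-seq libraries of mouse brain, a droplet-based single-nucleus total RNA method with random reverse transcription primers. They were chosen by their own counts. A nucleus was taken when Flt1 and Rgs5 together reached at least 6 unique fragment identifiers (UFIs, the counted molecules) per 10000 UFIs of that nucleus. In addition, the 4 kidney tubule genes Slc34a1, Lrp2, Slc12a1 and Slc12a3 together had to stay under 5 per 10000. Flt1 exceeded Rgs5 in 55 of the nuclei, called Flt1-high here, and Rgs5 exceeded Flt1 in 16, called Rgs5-high. The remaining nucleus held equal numbers. The brains came from wild-type C57BL/6J male mice of 6 to 8 weeks, and the libraries differed in storage and in primer. No_index_frozen (2 libraries) and Index_frozen (2 libraries) were made from frozen brain, No_index_fresh (2 libraries) and Index_fresh (1 library) from fresh brain. In the Index groups the reverse transcription primer carried a further cell barcode, the preindex, and in the No_index groups it did not. Groups were taken from the sample titles, since for 4 of the 7 libraries a further label names the opposite primer. Barcodes were 40 bases long in the libraries titled Index and 30 bases in those titled No_index. The libraries held between 8605214 UFIs (No_index_frozen 1) and 42439731 UFIs (No_index_fresh 2), and vascular nuclei between 3939 and 96037, with a median of 9965.5. Of the gated nuclei, 1 had a cell barcode that a further library also held. Nothing in the labels says how many animals stand behind the libraries, so p-values measure the spread between these libraries only, which may be technical.

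Brain capillaries are tubes of endothelial cells that pericytes wrap from outside, both embedded in a shared basement membrane. Endothelial cells of the brain are joined by tight junctions and carry transporters that let chosen solutes through, which together form the blood-brain barrier. Endothelial cells release platelet-derived growth factor and pericytes answer through its receptor, and Wnt signalling maintains the barrier program of the endothelium. Endothelium in the kidney is fenestrated in places and lacks these barrier transporters.

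Flt1 encodes VEGF receptor 1 on endothelial cells (GENCODE M21, GRCm38, chr5:147561604-147726011, minus strand). Rgs5 encodes a regulator of G-protein signalling that marks pericytes (chr1:169655501-169695813, plus strand). Every nucleus was gated on these 2 genes, so their levels describe the choice and test nothing. Summed over Flt1-high nuclei, Flt1 reached 1137 and 1175 CPM (counts per 1000000 UFIs) in No_index_frozen 1 and 2, 2380.3 and 2910.5 CPM in Index_frozen 1 and 2, 2662 and 1238 CPM in No_index_fresh 1 and 2, and 3336 CPM in Index_fresh 1. In all nuclei outside the gate Flt1 was at 4.56 CPM and Rgs5 at 1.86 CPM. Rgs5 in Rgs5-high nuclei ranged from 674 CPM in Index_frozen 1, with 2 nuclei, to 5796 CPM in No_index_frozen 2, with a single nucleus. No_index_frozen 1 held no Rgs5-high nucleus. The lowest nuclei inside the limit carried 6.68, 6.81 and 6.88 UFIs of the 2 genes per 10000, and the highest outside it carried 5.75, 5.37 and 5.27. On the kidney side the gap was wide, with at most 2.79 per 10000 inside and at least 11.3 outside.

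The promoters of the 2 genes of the gate and of the leading gene of each class are given here, since they are the genes that the classes are read by. Each runs from 250 bases before to 50 bases after the RefSeq start (GRCm38.p6), written 5′ to 3′ on the strand of the gene. Capitals mark the letters AGGAAG or, on the opposite strand, CTTCCT, a core that ETS factors such as Erg and Fli1 of endothelial cells are known to bind. The Flt1 window is chr5:147725962-147726261 (minus strand), the Rgs5 window chr1:169655251-169655550 (plus), the Slco1a4 window chr6:141856171-141856470 (minus) and the Atp13a5 window chr16:29378683-29378982 (minus).
Flt1: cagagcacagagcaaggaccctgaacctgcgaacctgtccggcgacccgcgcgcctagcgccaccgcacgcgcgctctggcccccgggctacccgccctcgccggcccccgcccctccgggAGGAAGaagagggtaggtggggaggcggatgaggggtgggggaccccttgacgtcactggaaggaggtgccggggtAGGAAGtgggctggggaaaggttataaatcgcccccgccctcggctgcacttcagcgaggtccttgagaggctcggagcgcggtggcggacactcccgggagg
Rgs5: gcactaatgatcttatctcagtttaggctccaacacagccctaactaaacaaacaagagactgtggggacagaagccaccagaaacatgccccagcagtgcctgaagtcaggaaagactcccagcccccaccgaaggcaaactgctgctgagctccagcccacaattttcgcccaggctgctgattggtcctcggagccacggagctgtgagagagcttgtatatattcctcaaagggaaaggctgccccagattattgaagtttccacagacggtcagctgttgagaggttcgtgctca
Slco1a4: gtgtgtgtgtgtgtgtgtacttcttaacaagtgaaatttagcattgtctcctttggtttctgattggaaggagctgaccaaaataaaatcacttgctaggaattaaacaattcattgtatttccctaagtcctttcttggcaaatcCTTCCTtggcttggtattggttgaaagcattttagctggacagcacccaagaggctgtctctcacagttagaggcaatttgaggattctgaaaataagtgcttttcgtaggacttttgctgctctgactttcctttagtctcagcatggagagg
Atp13a5: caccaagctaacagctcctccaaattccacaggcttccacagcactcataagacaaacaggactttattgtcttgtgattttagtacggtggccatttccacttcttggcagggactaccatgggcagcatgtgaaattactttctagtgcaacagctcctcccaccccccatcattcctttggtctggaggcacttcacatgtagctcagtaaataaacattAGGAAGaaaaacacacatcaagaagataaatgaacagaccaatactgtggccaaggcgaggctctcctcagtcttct
The Flt1 window held 2 matches, the Slco1a4 and Atp13a5 windows 1 each and the Rgs5 window 0. Among the 15 leading genes of Flt1-high nuclei, 12 had promoters in the table, and 7 of their 14 promoters held the letters. For the Rgs5-high leading genes it was 5 of 11 promoters of 10 genes. Of all 32851 promoters, 35.4% held them, and a match is not evidence of a bound factor.

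The vascular label was checked against markers that the gate did not use. Of the 72 nuclei, 65 carried UFIs of at least 5 of 18 endothelial markers and 40 carried at least 5 of 20 pericyte markers. Among 11108 nuclei under the Flt1 and Rgs5 limit, 70 (0.630%) reached 5 endothelial markers and 52 (0.468%) reached 5 pericyte markers. Most gated nuclei thus carried endothelial markers, but the 2 marker lists did not separate the classes. Both marker lists passed 5 genes in 24 of 55 Flt1-high nuclei, in 12 of 16 Rgs5-high nuclei and in the nucleus with equal counts, 37 in all. Among the nuclei under the Flt1 and Rgs5 limit only 4 (0.0360%) passed both. So did 2 of the 18 nuclei that the kidney limit left out. Endothelial markers alone passed in 28 gated nuclei, pericyte markers alone in 3, and neither list in 4. For this reason the classes are named by their gene and not as cell types. As a description of the gate, UFIs of both Flt1 and Rgs5 were found in 61 of its 72 nuclei. In neuron-rich nuclei outside the gate, which the rule itself keeps low in both, 3.88% held a Flt1 UFI and 2.30% a Rgs5 UFI at a median of 13089 UFIs. By library the Flt1 share lay between 1.33% in Index_fresh 1 and 11.1% in No_index_fresh 2. Whether a droplet held nuclei of both types or RNA of both was not tested.

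**Figure D1:**
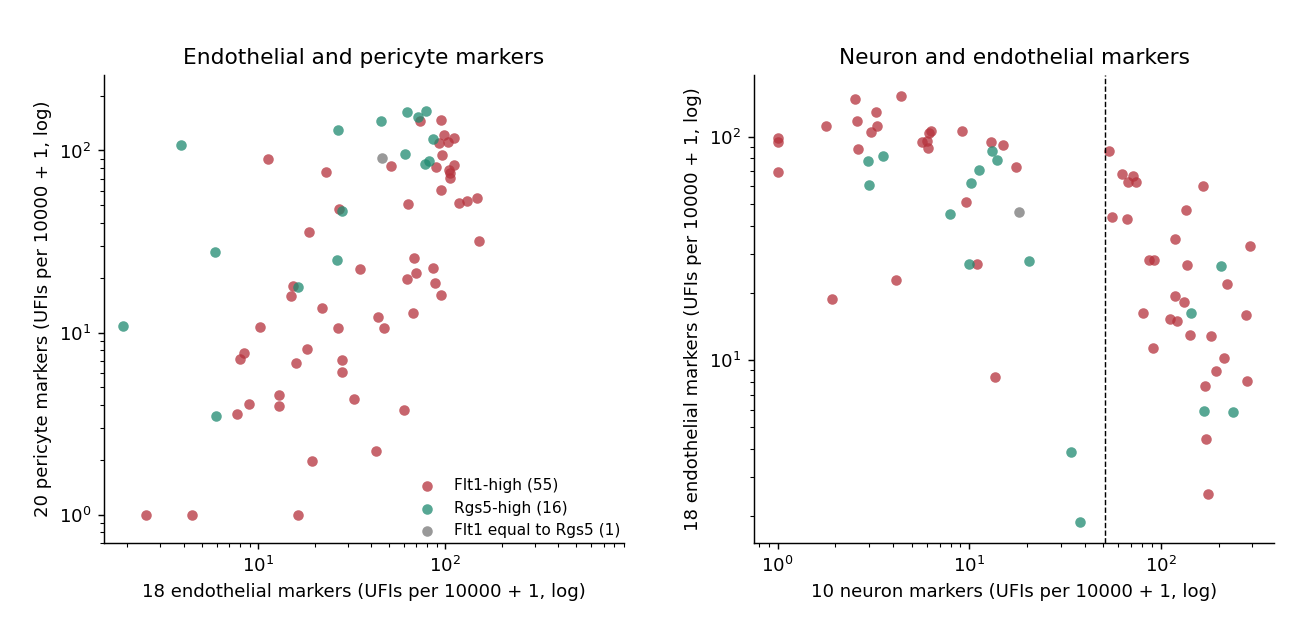
Each point is 1 of the 72 gated nuclei, coloured by class. On the left, UFIs per 10000 of 18 endothelial markers (x, log scale, 1 added) are plotted against 20 pericyte markers (y, log scale, 1 added), and many nuclei of both colours are high on both axes. On the right, 10 neuron markers (x) are plotted against the endothelial markers (y), with a dashed line at 50 neuron UFIs per 10000, and the 34 nuclei right of it have the lower median on the endothelial axis.

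Flt1-high nuclei were led by genes of the brain endothelium. Ranked by the median over libraries of the log2 ratio to nuclei outside the gate (10 CPM added to each side), the first 15 genes were Slco1a4, Ptprb, Epas1, Adgrl4, Cxcl12, Adgrf5, Slco1c1, Pltp, Abcb1a, Cyyr1, Hmcn1, Tek, Mecom, Zfp366 and Eng. This ranking comes from the nuclei that the gate picked and carries no test. Slco1a4, an organic anion transporter of the barrier, was at 404 and 402 CPM in No_index_frozen 1 and 2, 888 and 1595 CPM in Index_frozen 1 and 2, 713 and 542 CPM in No_index_fresh 1 and 2, and 1717 CPM in Index_fresh 1, against 1.37 CPM outside. The lowest library was still above 400 CPM, so each library with Flt1-high nuclei showed the gene. Slco1c1, which carries thyroxine into the brain, ranged from 303 CPM in No_index_frozen 1 to 1108 CPM in Index_frozen 2. Abcb1a, the P-glycoprotein efflux pump, ranged from 104 CPM in No_index_frozen 2 to 989 CPM in Index_fresh 1. Ptprb, the phosphatase that restrains the Tie2 receptor, had a log2 ratio of 5.57 in the median library and between 3.34 and 6.79 over the 7 libraries. Tek, which encodes Tie2, had a median log2 ratio of 4.70, and Eng, a TGF-beta co-receptor of endothelium, 4.56. Cldn5, the main tight-junction claudin, was found in 35 of 55 Flt1-high nuclei, at 118 CPM summed against 0.184 CPM outside. Hmcn1 was uneven, at 0 CPM in No_index_frozen 1 and 1125 CPM in Index_fresh 1.

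Rgs5-high nuclei were led by pericyte genes together with endothelial ones. Among the first 15 were Atp13a5, Epas1, Slco1a4, Pdgfrb, Ptprb, Vtn, Cxcl12, Adgrf5, Notch3, Abcc9, Abcb1a, Adgrl4, Pltp and Rbpms. Atp13a5, a P-type ATPase known as a brain pericyte marker, was at 3312 CPM in No_index_frozen 2, 1608 and 3541 CPM in Index_frozen 1 and 2, 1069 and 2111 CPM in No_index_fresh 1 and 2, and 905 CPM in Index_fresh 1. All 6 libraries with such nuclei were above 900 CPM, against 2.74 CPM outside the gate. In Flt1-high nuclei the same gene ranged from 0 CPM in No_index_frozen 2 and No_index_fresh 1 to 891 CPM in Index_fresh 1. Pdgfrb, the receptor through which pericytes are recruited, was at 834 CPM summed over Rgs5-high and 168 CPM over Flt1-high nuclei. Vtn, the matrix protein vitronectin, was at 638 and 157 CPM, Abcc9, the sulfonylurea receptor of the pericyte potassium channel, at 608 and 169 CPM, and Notch3 at 502 and 99.2 CPM in the same order. Kcnj8, the pore of that channel, was seen in 5 of 16 Rgs5-high and 9 of 55 Flt1-high nuclei. The pericyte list had a median of 90.6 UFIs per 10000 in Rgs5-high and 18.7 in Flt1-high nuclei. In nuclei under 50 neuron UFIs per 10000 the medians were closer, at 111 and 74.0. Endothelial genes did not drop out. Ptprb was at 974 CPM in Rgs5-high and 798 CPM in Flt1-high nuclei, and Slco1a4 at 723 and 921 CPM. Index_frozen 1 stood apart, as its 2 Rgs5-high nuclei held 0 UFIs of Tek, Abcb1a, Adgrl4 and Slco1c1 but 1608 CPM of Atp13a5.

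**Figure D2:**
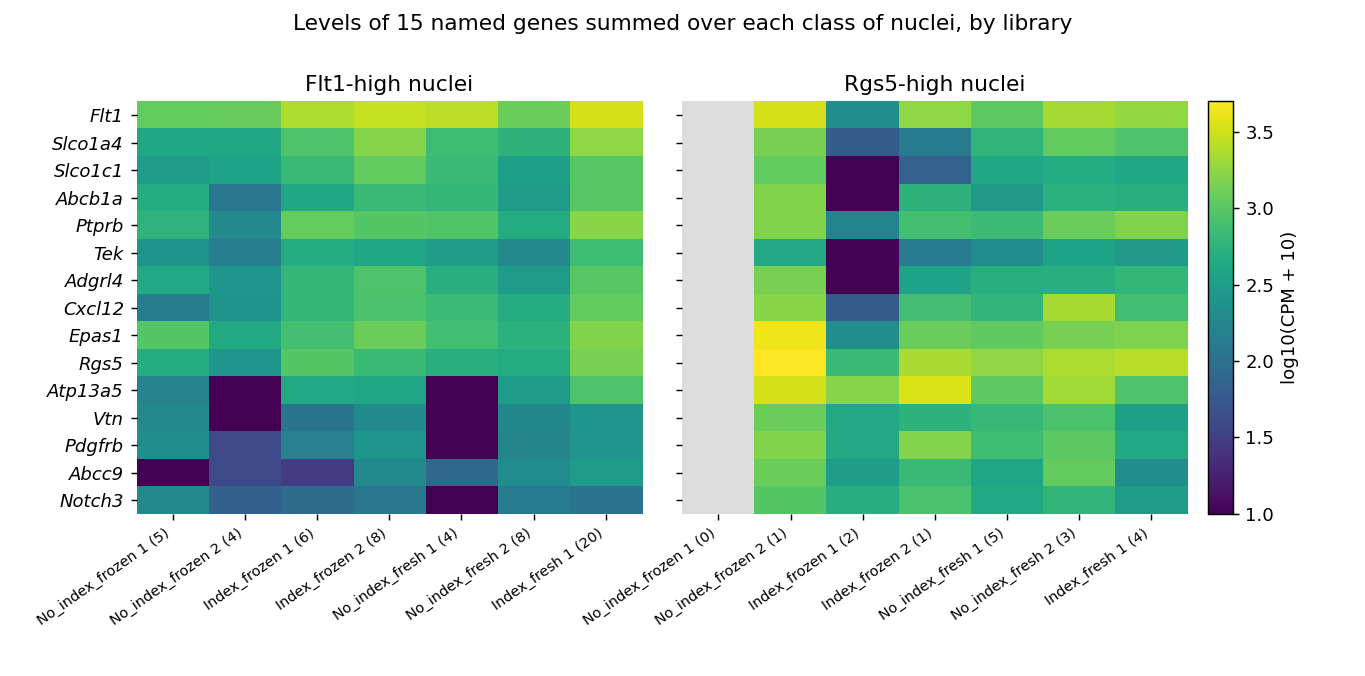
Colours give log10(CPM + 10) of 15 named genes (rows) in the summed UFIs of each library (columns, number of nuclei in brackets), for Flt1-high nuclei on the left and Rgs5-high nuclei on the right. The grey column had no Rgs5-high nucleus. Atp13a5, Vtn, Pdgfrb, Abcc9 and Notch3 are brighter on the right, while Ptprb and Epas1 are bright on both sides, least so in Index_frozen 1 on the right.

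The remaining groups are described by the number of measured members whose median log2 ratio to nuclei outside the gate was over 1, a more than 2-fold higher level, with no test. Over all genes this held for 3.08% of 34488 genes in Flt1-high nuclei and for 5.08% of 34470 genes in Rgs5-high nuclei. Since the gate chose the nuclei on this very contrast, nothing is read from the counts beyond their description. Among 18 pan-endothelial markers it was 17 in both classes, and Ptprb, Cyyr1, Tek and Fli1 had the most UFIs in Flt1-high nuclei. Among 30 barrier genes it was 29 in Flt1-high and 25 in Rgs5-high nuclei. Slc2a1, the glucose transporter of the barrier, was at 407 CPM in Flt1-high nuclei and 10.3 CPM outside. Among 20 pericyte markers it was 12 in Flt1-high and 19 in Rgs5-high nuclei. Among 10 smooth muscle markers it was 2 and 6, respectively.

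For the VEGF list 3 of 8 members were over 2-fold higher in both classes. Kdr, the main VEGF receptor, was at 234 CPM in Flt1-high nuclei against 1.42 CPM outside. On the angiopoietin and Tie list 4 of 5 members were over 2-fold higher in Flt1-high and 3 of 5 in Rgs5-high nuclei. For PDGF signalling it was 3 of 4 members in both classes, with the ligand Pdgfb at 100.5 CPM in Flt1-high and 70.3 CPM in Rgs5-high nuclei. On the Notch list it was 7 of 13 in both. The receptor Notch1 was at 178 CPM in Flt1-high and 352 CPM in Rgs5-high nuclei, and the target gene Heyl at 39.2 and 226 CPM. For TGF-beta and BMP signalling it was 10 of 14 in Flt1-high and 11 of 14 in Rgs5-high nuclei. Among 12 genes of the Wnt barrier pathway it was 11 and 9, with the Wnt-responsive factor Lef1 at 519.5 and 352 CPM and the target Apcdd1 at 279 and 417 CPM. Among 17 endothelial transcription factors it was 14 and 13. Epas1, a hypoxia-inducible factor, and Mecom had the highest median log2 ratios of these in Flt1-high nuclei, at 5.47 and 4.63. Tcf4 had the most UFIs but was at 1005 CPM outside the gate too. Basement membrane genes passed for 14 of 15 in both classes. Lama2, a laminin chain, was at 171.5 CPM in Flt1-high and 567.5 CPM in Rgs5-high nuclei, and Col4a1, of collagen IV, at 259.8 and 432 CPM. For early response genes it was 3 of 12 and 2 of 12.

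Vessel type was only thinly covered. Of 12 arterial markers 4 were over 2-fold higher in Flt1-high and 5 in Rgs5-high nuclei, and of 8 venous markers 3 in both. The arterial list summed to between 1.75 and 5.91 UFIs per 10000 over the 7 libraries of Flt1-high nuclei, and its genes most often seen were Unc5b and Efnb2. The venous list summed to between 3.87 and 13.8, mostly of Tshz2, which gave 708 of its 957 UFIs and stood at 298 CPM outside the gate as well. One Rgs5-high nucleus of Index_fresh 1 carried 85 UFIs per 10000 of the smooth muscle list, while the median Rgs5-high nucleus carried 2.17. All UFIs of Acta2, the smooth muscle actin, in Rgs5-high nuclei came from this 1 nucleus. Fibroblast markers reached at most 25.7 per 10000 in any gated nucleus.

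RNA of other brain cells was frequent. With 10 neuron markers, 34 of the 72 nuclei held at least 50 UFIs per 10000, the level that 93.4% of nuclei under the limit reached. It was 30 of 55 among Flt1-high and 4 of 16 among Rgs5-high nuclei. Per library it was 4 of 5 in No_index_frozen 1, 3 of 5 in No_index_frozen 2, 3 of 8 and 4 of 9 in Index_frozen 1 and 2, 5 of 9 and 7 of 11 in No_index_fresh 1 and 2, and 8 of 25 in Index_fresh 1. The 3 Index libraries thus had the lowest shares, between 32.0% and 44.4%, and the 4 No_index libraries lay between 55.6% and 80.0%. Neuron-rich gated nuclei had a median of 17.8 endothelial UFIs per 10000, against 83.2 in the 38 neuron-poor ones. Their barrier genes had a median of 45.8 against 138 per 10000. They were also deeper, with a median of 12394 against 8251.5 UFIs. Of the 37 nuclei that passed both vascular marker lists, 30 were neuron-poor. Astrocyte markers were over 2-fold higher than outside the gate in 5 of 7 cases in each class. Slc1a2, for example, was at 1791 CPM in Flt1-high nuclei against 556 CPM outside. The highest single nucleus, in No_index_frozen 2, carried 288 astrocyte UFIs per 10000. The part of this RNA in the vascular values was not tested.

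The limit on kidney tubule genes left out 18 further nuclei past the Flt1 and Rgs5 limit, 10 in Index_frozen 1 and 8 in Index_frozen 2, and no nucleus in the other 5 libraries. All 18 carried at least 5 endothelial markers and all were neuron-poor. Slco1c1, Mfsd2a and Vtn were at 0 UFIs in them, and Slco1a4 and Abcb1a were each seen in 1. Plvap, the diaphragm protein of fenestrated endothelium, was seen in 13 of the 18. Inside the gate, 2 Flt1-high nuclei of Index_frozen 1 held 124 and 85.6 UFIs per 10000 of 14 kidney and fenestrated endothelial markers, while the other 70 gated nuclei held at most 21.4. Their UFIs on this list were mainly of Meis2 (103) and Plpp1 (48), and both nuclei held these and Igfbp5 (4). Plvap and Aqp1 had 3 UFIs each, each in only 1 of the 2 nuclei. Ehd3, Igfbp3, Fabp4, Pi16 and Tmem100 were at 0. Slco1a4, Slco1c1, Abcb1a and Mfsd2a were at 0 in both, whereas Slco1a4 was found in 65 of the other 70 gated nuclei. Their neuron list stood at 0 and 0.931 per 10000. The first of them also held 4 microglia markers at 23.5 UFIs per 10000, where the 18 nuclei over the kidney limit reached at most 7.49, and the second held none. Of the 4 kidney tubule genes of the gate, the second held 3 UFIs and the first 0. At 2.79 per 10000 the second had the highest value of these genes inside the gate. Meis2 is also a gene of brain neurons, at 351 CPM outside the gate. The source of these 2 nuclei was not tested. Values for gated and for Flt1-high nuclei of Index_frozen 1, above and below, include them.

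**Figure D3:**
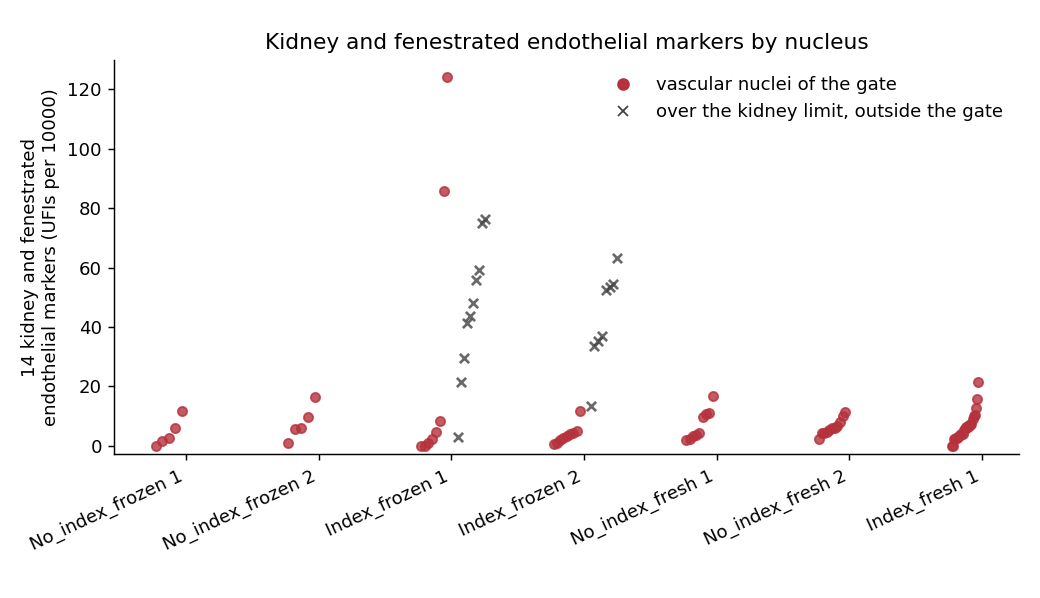
UFIs per 10000 of 14 kidney and fenestrated endothelial markers (y) are shown for each nucleus of the 7 libraries (x). Filled points are gated nuclei and crosses are the 18 nuclei over the kidney limit, all in the Index_frozen libraries. The 2 gated nuclei at 124 and 85.6 in Index_frozen 1 lie above the other gated nuclei and next to the crosses of that library, the highest of which is at 76.3.

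The share of vascular nuclei was compared between storage conditions. It was 0.714% and 0.625% in No_index_frozen 1 and 2 (5 of 700 and 5 of 800 nuclei), 0.348% and 0.450% in Index_frozen 1 and 2 (8 of 2300 and 9 of 1998), 0.900% and 0.846% in No_index_fresh 1 and 2 (9 of 1000 and 11 of 1300), and 0.806% in Index_fresh 1 (25 of 3100). Each fresh library was above each frozen one. The mean was 0.534% ± 0.166 in frozen brain (SD, n = 4) and 0.851% ± 0.0470 in fresh brain (SD, n = 3), a difference of -0.316 percentage points (two-sided exact permutation test over the 7 libraries, p = 0.0571). This is the smallest p that 4 libraries against 3 allow, so the test could not reach 0.05. Exact 95% binomial (Clopper-Pearson) intervals of single libraries, which cover counting error only, overlapped throughout, from 0.150 to 0.684% in Index_frozen 1 and from 0.412 to 1.70% in No_index_fresh 1. With nuclei thinned to 5000 UFIs, and shallower ones left out, the difference was -0.268 (exact permutation test, p = 0.343). With a gate of 4 per 10000 it was -0.284 (exact permutation test, p = 0.171). The difference shrank to -0.181 without the Index_frozen libraries and to -0.204 without neuron-rich gated nuclei. Outside the gate, the Index_frozen libraries held 5.57 and 4.78 UFIs per 10000 of kidney tubule markers, against 0.384 to 0.738 in the other libraries, and 85.9% and 87.2% neuron-rich nuclei, against 95.8% to 98.1%. These nuclei are part of the total from which the shares were taken, and their part in the difference was not tested. Within the No_index libraries the difference was -0.203 and within the Index libraries -0.407 percentage points, and neither was tested. A lower share of vascular nuclei and a loss of Flt1 or Rgs5 RNA per nucleus cannot be told apart.

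**Figure D4:**
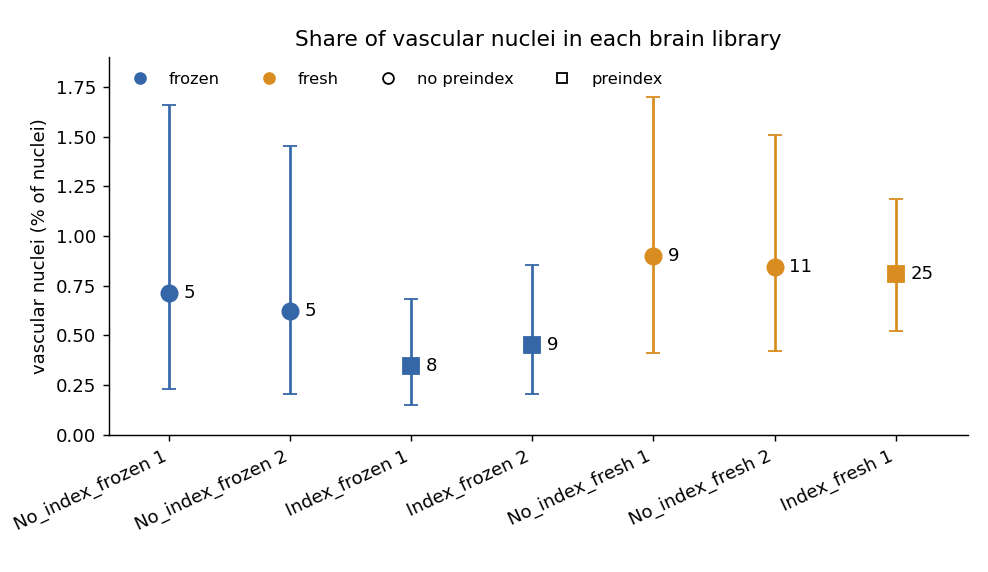
The share of nuclei in the gate (y, in %) is shown for each of the 7 libraries (x), with exact 95% binomial intervals as bars and the number of vascular nuclei beside each point. The 3 fresh libraries lie between 0.806% and 0.900% and the 4 frozen libraries between 0.348% and 0.714%.

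By primer, the share was 0.535% ± 0.241 with preindex (SD, n = 3) and 0.771% ± 0.125 without (SD, n = 4), a difference of -0.236 percentage points (two-sided exact permutation test, p = 0.171). The ranges overlapped. With nuclei thinned to 5000 UFIs, and shallower ones left out, the difference was -0.471 (exact permutation test, p = 0.0571, the smallest possible). The gated nuclei under 5000 UFIs were all in Index_frozen 1 and Index_fresh 1, both with preindex, and their part was not tested. With a gate of 4 per 10000 the difference was -0.354. The direction turned to 0.0635 once neuron-rich gated nuclei were left out and to 0.0351 without the Index_frozen libraries. The share of gated nuclei that were Rgs5-high was 0 in No_index_frozen 1 (0 of 5 nuclei) and 20% in No_index_frozen 2, 25 and 11.1% in Index_frozen 1 and 2, 55.6 and 27.3% in No_index_fresh 1 and 2, and 16.0% in Index_fresh 1. The mean was 14% ± 11 in frozen (SD, n = 4) and 32.9% ± 20.4 in fresh brain (SD, n = 3, exact permutation test, p = 0.229). By primer it was 17.4% ± 7.05 with preindex (SD, n = 3) and 25.7% ± 23.0 without (SD, n = 4, exact permutation test, p = 0.629). Neither difference went beyond the spread between libraries, and both changed sign within strata. By storage it was -31.4 percentage points within the No_index and 2.06 within the Index libraries, and by primer -25.4 within fresh and 8.06 within frozen brain. Without No_index_fresh 1 the primer difference was 1.61.

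Depth is part of the rule, which divides by the UFIs of a nucleus so that a shallow nucleus reaches the limit with fewer marker UFIs. UFIs per nucleus are therefore given as a description. Median UFIs per vascular and per other nucleus were 8126 and 10236 in No_index_frozen 1, 10811 and 15418 in No_index_frozen 2, 9037.5 and 9936 in Index_frozen 1, 12479 and 14017 in Index_frozen 2, 11192 and 21188 in No_index_fresh 1, 18979 and 27546 in No_index_fresh 2, and 6320.0 and 9028 in Index_fresh 1. The order was the same in 7 of 7 libraries. The difference of median log2 UFIs averaged -0.45 ± 0.27 (SD, n = 7). At equal depth vascular nuclei held more genes. Thinned to 3000 UFIs per nucleus, the median vascular nucleus held 92.9 ± 26.8 more genes than the median other nucleus (SD, n = 7, two-sided exact sign-flip permutation test over libraries, p = 0.0156, the smallest possible), and the gap was positive in 7 of 7 libraries. In No_index_fresh 2 this was 1648 against 1523 genes, and in No_index_frozen 2, where the gap was smallest, 1535 against 1481. Without neuron-rich gated nuclei, which left a single nucleus in No_index_frozen 1, the means were -0.56 on the log2 scale and 96.0 genes, the latter with a higher p of 0.0312 (exact sign-flip permutation test), so that it was no longer of the same sign in all libraries.

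Gene levels of Flt1-high nuclei were then compared between storage conditions and primers by edgeR's quasi-likelihood test on UFIs summed per library. Libraries entered with at least 5 such nuclei, which dropped No_index_frozen 2 and No_index_fresh 1 (4 nuclei each) and left 5 libraries and 3782 genes. Between frozen and fresh brain 0 of 3782 genes passed an adjusted p of 0.05 (0% called), and 92 had an unadjusted p under 0.05. DESeq2 called 0 as well, but edgeR called 14 genes without Index_frozen 1, 12 without Index_frozen 2, 6 with the replicate block and 5 with no filter on low counts. Among the genes with a small p was Fam19a1, a neuronal chemokine-like gene named after its values were seen. It was at 75.8 CPM in No_index_frozen 1, 80.7 and 9.01 CPM in Index_frozen 1 and 2, 661 CPM in No_index_fresh 2 and 579 CPM in Index_fresh 1, a log2 fold change of -3.67 ± 0.69 (SE, edgeR adjusted p = 0.791). Of 17 endothelial markers tested, 8 had a lower and 9 a higher value in frozen brain (median log2 fold change 0.11, against -0.03 over all genes). Barrier genes were lower in 21 of 23 cases, with a median of -0.33, and no member passed. Pericyte markers were lower in 8 of 9 cases (-0.47), oligodendrocyte markers in 3 of 3 (-2.36) and those of oligodendrocyte precursors in 3 of 3 (-0.59), and their part in the barrier values was not tested. The direction of the endothelial markers turned with the nuclei and libraries used. Over all 7 libraries 9 of 13 were lower (median -0.28), and in neuron-poor nuclei 12 of 12 were lower (-1.21, against -0.29 over 1193 genes), as were 21 of 21 barrier genes (-1.46), with no call, while 3 of 3 kidney and fenestrated endothelial markers were higher (2.15). That last fit had no minimum of 5 nuclei and rested on 1 nucleus each in No_index_frozen 1 and 2, 4 each in Index_frozen 1 and 2, 2 in No_index_fresh 2 and 13 in Index_fresh 1. Of the 4 in Index_frozen 1, 2 were the nuclei with kidney and fenestrated markers and no UFI of Slco1a4, Slco1c1, Abcb1a or Mfsd2a.

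By primer, 0 of 3782 genes passed (0% called) and 345 had an unadjusted p under 0.05, while DESeq2 called 5, all lower with preindex. With 1 library left out edgeR called between 0 and 50 genes, 50 without Index_frozen 2 and 25 without Index_frozen 1. Endothelial genes had higher values with preindex. It was 16 of 17 endothelial markers (median log2 fold change 1.29), 22 of 23 barrier genes (1.12), 12 of 12 basement membrane genes (1.37) and 11 of 11 endothelial transcription factors (1.22), against a median of 0.01 over all genes, and none of them passed in this fit. Over all 7 libraries 10 of 2709 genes passed, 1 higher and 9 lower with preindex, and the higher one was Lama4, of the basement membrane list (log2 3.29 ± 0.53 SE, edgeR adjusted p = 0.0221). Slco1a4 had a log2 fold change of 1.61 ± 0.58 (SE, edgeR adjusted p = 0.46). Lama4, a laminin chain of the endothelial basement membrane that was also picked after its values were seen, was at 0 CPM in No_index_frozen 1, 47.4 CPM in No_index_fresh 2, 323 and 279 CPM in Index_frozen 1 and 2 and 358 CPM in Index_fresh 1, and its groups did not overlap (edgeR adjusted p = 0.317). Markers of other cells were mixed. Pericyte markers were higher with preindex in 7 of 9 cases (median 1.03) and the 1 microglia marker tested was at 0.72. Kidney and fenestrated endothelial markers were higher in 3 of 4 cases (1.81). The 2 nuclei of Index_frozen 1 rich in them are on the preindex side, and their part was not tested. Oligodendrocyte markers had a median of -0.06. Neuron markers were lower in 7 of 10 cases (-0.54), astrocyte markers in 4 of 4 (-1.70) and those of oligodendrocyte precursors in 3 of 3 (-0.88). The share of neuron-rich nuclei moved with the primer, as given above, and its part in these values was not tested. The fit in neuron-poor nuclei kept this direction, with an endothelial median of 1.59 against 0.44 over all its genes. Its No_index side rests on 4 nuclei in 3 libraries, too few to bear on this, and the same holds for its storage values above. Among the genes with the smallest p, again named after their values were seen, were Galnt13 and Grm4, a glutamate receptor of neurons. Grm4 was at 732 CPM in No_index_frozen 1 and 181 CPM in No_index_fresh 2 against 0, 54.1 and 13 CPM in Index_frozen 1 and 2 and Index_fresh 1 (edgeR adjusted p = 0.112).

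Whether the primer contrast differed between frozen and fresh brain was asked with an interaction term, for which 23 of 3782 genes (0.608%) passed, 18 positive and 5 negative. Only Index_frozen had more than 1 library in this fit. DESeq2 called 0, and the fit over all 7 libraries called 0. Of the 23 genes, 12 were at 0 in at least 1 library, so their fitted values are no bounds on a fold change. The positive ones with the largest values were Kcnmb2, Alk, Grik1, Fras1 and 6330411D24Rik. Grik1, a kainate receptor subunit of neurons, was at 0 CPM in No_index_frozen 1, 1331 and 784 CPM in Index_frozen 1 and 2, 127 CPM in No_index_fresh 2 and 39.0 CPM in Index_fresh 1. List genes among those that passed were Vwf, Meis2 and St18. Vwf, the von Willebrand factor of endothelium, was at 455 CPM in No_index_frozen 1, 60.5 and 117 CPM in Index_frozen 1 and 2, 14.8 CPM in No_index_fresh 2 and 143 CPM in Index_fresh 1 (log2 -5.36 ± 1.27 SE, edgeR adjusted p = 0.00819). The value in No_index_frozen 1 came from 18 UFIs, and Vwf was at 0 CPM in No_index_frozen 2 and No_index_fresh 1, the libraries left out of this fit. Meis2, of the kidney and fenestrated list, reached 2098 CPM in Index_frozen 1 and 0 CPM in Index_frozen 2 (edgeR adjusted p = 0.00984), and the 2 nuclei named above gave 103 of the 104 UFIs in the first of these. St18, of oligodendrocytes, was at 0 in both Index_frozen libraries and between 202 and 221 CPM in the other 3 libraries (edgeR adjusted p = 0.0285).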

How the data were processed

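Nuclei of mouse brain were profiled by snHH-seq. The deposited tables hold counts of UFIs per gene and cell barcode, which the authors made by trimming with cutadapt, finding barcodes with UMI-tools and a read cutoff set by hand, aligning unique reads with STAR, assigning them to whole genes (introns included) with featureCounts and counting with UMI-tools. Per the submitters' processing notes the builds were GRCh38, GRCm38 and mm10, with no role given. No further filter on nuclei and no doublet caller was applied here, and 5 gated nuclei exceeded 2 times the median UFIs of their library.

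Nuclei were gated as the report describes. CPM values are UFIs summed over the nuclei of a class, scaled to a sum of 1000000. Log2 ratios used 10 added CPM. Shares were compared by exact permutation over libraries, and genes per nucleus by exact sign flips over libraries (Python 3.11.15, numpy 2.4.6, scipy 1.17.1, pandas 2.3.3). Genes were tested by edgeR 4.0.16 (R 4.3.3, quasi-likelihood, Benjamini-Hochberg adjustment) with storage and primer as terms, and by DESeq2 1.42.0 as an alternative. The code was tested on simulated data. The interaction fit had 1 residual degree of freedom.

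The members, gene lists and tests were chosen with earlier results of these data known. Named genes were Flt1 and Rgs5, the 15 leading genes of each class with at least 50 CPM and UFIs in at least 5 libraries, list members with many UFIs, up to 5 genes in each direction that passed a test, and list genes that passed. Some genes that the rule names are not reported here. Cldn5, Kcnj8, Kdr, Pdgfb, Notch1, Heyl, Apcdd1, Lama2 and Col4a1 were picked as examples of their lists after their values were seen. Other gates, depths, filters, scalings, a replicate block and leaving out each library were tried.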

Additional observations from a re-analysis of the deposited data

Results flagged for a closer look

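In 18 tests for a library far from the others of its group (the 4 frozen or the 4 No_index libraries), of which chance flags about 1 in 20, the kidney and fenestrated endothelial list in Flt1-high nuclei stood apart in Index_frozen 1, at 35.7 UFIs per 10000. The other frozen libraries were at 4.04, 5.06 and 3.15. The 2 nuclei described above, with 124 and 85.6 UFIs per 10000, carried most of it.

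Outside the comparisons, 18 nuclei of the Index_frozen libraries passed the Flt1 and Rgs5 limit but held kidney tubule RNA over the limit, and 15 of them reached 25 UFIs per 10000 of the same list. No such nucleus was found in the other 5 libraries.

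By the interaction term of edgeR, the primer contrast of Flt1-high nuclei passed as different between frozen and fresh brain for some genes. That fit had 1 library in 3 of its 4 groups and 1 residual degree of freedom, DESeq2 and the fit over all 7 libraries called 0 genes, and fitted values of genes with a library at 0 are no bounds. The fitted log2 value was 14.13 for Kcnmb2, 12.30 for Alk, 11.90 for Grik1, 11.29 for Fras1, 11.22 for 6330411D24Rik and 10.16 for Meis2. It was -7.83 for Gm12239, -7.73 for St18, -5.47 for Slc6a11, -5.36 for Vwf and -5.29 for Trpm3. Kcnmb2 was seen only in Index_frozen 2 and No_index_fresh 2, at 351 and 71.1 CPM. Trpm3 was at 2374 CPM in No_index_frozen 1 against 20.2 and 18 CPM in Index_frozen 1 and 2, and at 1396 CPM in No_index_fresh 2 against 481 CPM in Index_fresh 1. Slc6a11, a GABA transporter of astrocytes, was at 707 CPM in No_index_frozen 1 against 20.2 and 9.01 CPM in Index_frozen 1 and 2. In No_index_frozen 1 all 5 Flt1-high nuclei together held 39595 UFIs.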

How the results depend on the processing

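The differences in UFIs (-0.498 to -0.367 with 1 library left out) and in genes per nucleus (87.6 to 99.5) and the share by storage (-0.376 to -0.254, likewise) kept their direction under every alternative run, but the share by storage came down to -0.181 without both Index_frozen libraries and lost its separation of the libraries at a gate of 4 and at 5000 UFIs. The share by primer was -0.372 to -0.143 with 1 library left out. It grew to -0.471 at 5000 UFIs per nucleus, where shallower nuclei were left out. It turned to 0.0635 without neuron-rich nuclei and to 0.0351 without both Index_frozen libraries. With 1 library left out, the Rgs5-high share ranged from -27.4 to -7.61 by storage and from -16.9 to 1.61 by primer, the last without No_index_fresh 1. Over all alternatives it was -33.4 to -3.21 and -30.8 to 1.61. Calls by storage, 0 in the report, were 5 with no filter, 6 with the replicate block, 2 over all vascular nuclei and 2 over these with the block, and 0 to 14 with 1 library left out (14 without Index_frozen 1, 12 without Index_frozen 2). Calls by primer, also 0, were 5 by DESeq2, 5 with upper-quartile scaling, 22 with no filter, 31 with the replicate block, 12 over all vascular nuclei, 14 over these with the block, 6 with a kidney limit of 2 per 10000 and 10 over all 7 libraries. They were 0 to 50 with 1 library left out (0 without No_index_frozen 1, 25 and 50 without Index_frozen 1 and 2, 2 without No_index_fresh 2, 16 without Index_fresh 1). The 23 interaction calls became 0 by DESeq2 and over all 7 libraries, 6 with no filter, 1 over all vascular nuclei with or without the block and 2 without the deepest nuclei. The kidney limit of 2 per 10000 left out the nucleus of Index_frozen 1 at 2.79, 1 of the 2 with kidney and fenestrated markers. The causes were not tested. Same-numbered libraries did not deviate together (correlations over genes 0.00786, 0.0118 and -0.00645). These sums rest on 5 to 11 gated nuclei per library, so the correlations cannot decide whether the numbers pair the libraries. Storage without both Index_frozen libraries, and the interaction with the block, a gate of 10 or any library left out, could not be fitted. Alternatives without neuron-rich nuclei, over all 7 libraries and with the block over all vascular nuclei were chosen after seeing the data. Each library gave 5 to 25 gated nuclei.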

Other observations

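Nuclei under the Flt1 and Rgs5 limit also carried vascular markers. UFIs of at least 5 of the 18 endothelial markers were found in 70 of these 11108 nuclei, a share of 0.144% in No_index_frozen 1, 0.503% in No_index_frozen 2, 0.876% and 1.11% in Index_frozen 1 and 2, 0.404% and 1.32% in No_index_fresh 1 and 2, and 0.0650% in Index_fresh 1. The 18 nuclei over the kidney limit lie past the Flt1 and Rgs5 limit and are not among these nuclei. Kidney tubule markers were also higher outside the gate in the Index_frozen libraries, and the part of such nuclei in these shares was not tested. No_index_fresh 2 had the deepest nuclei, and 11.1% of its neuron-rich nuclei held a Flt1 UFI, against 1.33% in Index_fresh 1.

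Single gated nuclei were rich in RNA of a further cell type. In Index_fresh 1 a nucleus held 150 UFIs per 10000 of the oligodendrocyte list, and astrocyte UFIs per 10000 reached 147 in a nucleus of No_index_fresh 1 and 113 in a nucleus of Index_fresh 1. Fibroblast markers peaked at 25.7 per 10000 in a Rgs5-high nucleus of No_index_fresh 1, in which library Slc6a13 was the most abundant gene of that list.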
